A study of Mus musculus with 8 samples.

Results

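The molecules described here are those through which B cells stimulate or restrain T cells, and by which their own activation is restrained. They were taken from the count matrix of splenic B cells as the rows whose symbol was Cd274, Pdcd1lg2, Pdcd1, Cd80, Cd86, Btla, Cd200, Lag3, Lgals9 or Il10. All 10 were among the 24902 symbols of the matrix, and 9 were among the 13173 genes tested in all 8 mice. Pdcd1 had no value in the Eµ-TCL1 mouse and was not in that test. The RNA came from B cells isolated with a pan-B kit from the spleens of mice at early removal criteria (ERC), the point at which disease required an animal to be removed. There were 4 Eµ-PRMT5 mice carrying Eµ-hPRMT5, 3 Eµ-PRMT5/TCL1 mice carrying Eµ-hPRMT5 and Eµ-hTCL1, and 1 Eµ-TCL1 mouse carrying Eµ-hTCL1, each measured as 1 library and labelled C57BL/6N. The Eµ-hPRMT5 transgene is a human PRMT5 cDNA driven by a VH promoter and the IgH-µ enhancer, which act in immature and mature B cells, and several founders were made. By its title, Eµ-PRMT5 mouse 3 bears the number of a mouse in which the study saw anaplastic large lymphocytes and histiocytes. Eµ-PRMT5 mouse 4 bears the number of a mouse with sheets of small lymphocytes, and mouse 2 the name of a founder. TCL1 mice are an established model of chronic lymphocytic leukemia (CLL). Non-transgenic mice were not analysed here, and ages at ERC were not given in the labels.

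Checkpoint and costimulatory proteins act in pairs across the contact between cells. CD80 and CD86 on a B cell bind CD28 to stimulate a T cell, or CTLA4 to restrain it. PD-L1 (Cd274) and PD-L2 (Pdcd1lg2) bind PD-1 (Pdcd1), BTLA binds HVEM (Tnfrsf14), CD200 binds its receptor on myeloid and T cells, LAG3 binds MHC class II, and galectin-9 (Lgals9) binds TIM-3 (Havcr2). IL-10 is a secreted cytokine that restrains T cells and macrophages and marks regulatory B cells. In CLL, several of these molecules are known on the leukemic cells or on the T cells around them.

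The libraries held between 3356297 reads on genes in the Eµ-TCL1 mouse and 10252426 in Eµ-PRMT5 mouse 4. Values are CPM, read counts scaled to library size, after TMM normalization, which brings libraries to a shared level over most genes. A value of 1 CPM stood for between 3.70 and 8.67 reads, so the lowest values of Pdcd1 and Lag3 rested on 13 and 11 reads. Mouse Prmt5 ranged from 62.7 to 235 CPM across the Eµ-PRMT5 mice and from 110 to 126 CPM in the Eµ-PRMT5/TCL1 mice, with 79.5 CPM in the Eµ-TCL1 mouse. Whether reads of the human transgenes were counted on mouse genes is not given in the sources used here. All 8 B cell markers had a value in every library, and their summed level was between 3514 and 8164 CPM in 7 mice and 1737 CPM in Eµ-PRMT5 mouse 4. The monocyte and macrophage marker sum of that mouse was 3349 CPM, the second highest. Eµ-PRMT5/TCL1 mouse 1 had the highest neutrophil and monocyte marker sums, 8790 and 7343 CPM. The count of members with ranges apart was therefore also taken without these 2 libraries.

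In these samples no member passed the test between genotypes. The test had limited reach at this number of mice. In simulated counts it called 0% of 200 genes given a log2 change of 1 between the replicated genotypes, at an adjusted p under 0.05. At a log2 change of 2 it called 43.5%. A member that was not called is thus not shown to be equal between genotypes. In the comparison of 3 Eµ-PRMT5/TCL1 with 4 Eµ-PRMT5 mice, 0 of 9 members tested had an adjusted p under 0.05 in edgeR's quasi-likelihood test (background 0.0% of 13173 genes) and 0 had an unadjusted p under 0.05 (background 2.17%). DESeq2 also called 0 of the 9 in each of the 3 comparisons made here. The ranges of the 2 groups overlapped for all 10 members, while 2.95% of all tested genes had ranges apart. The members differed from each other in their spread among mice of 1 genotype, which ran from 1.57-fold for Cd274 to 17.6-fold for Lgals9 over the 4 Eµ-PRMT5 mice. In bulk samples such as these, fewer cells of a type and less RNA per cell cannot be told apart.

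**Figure D1:**
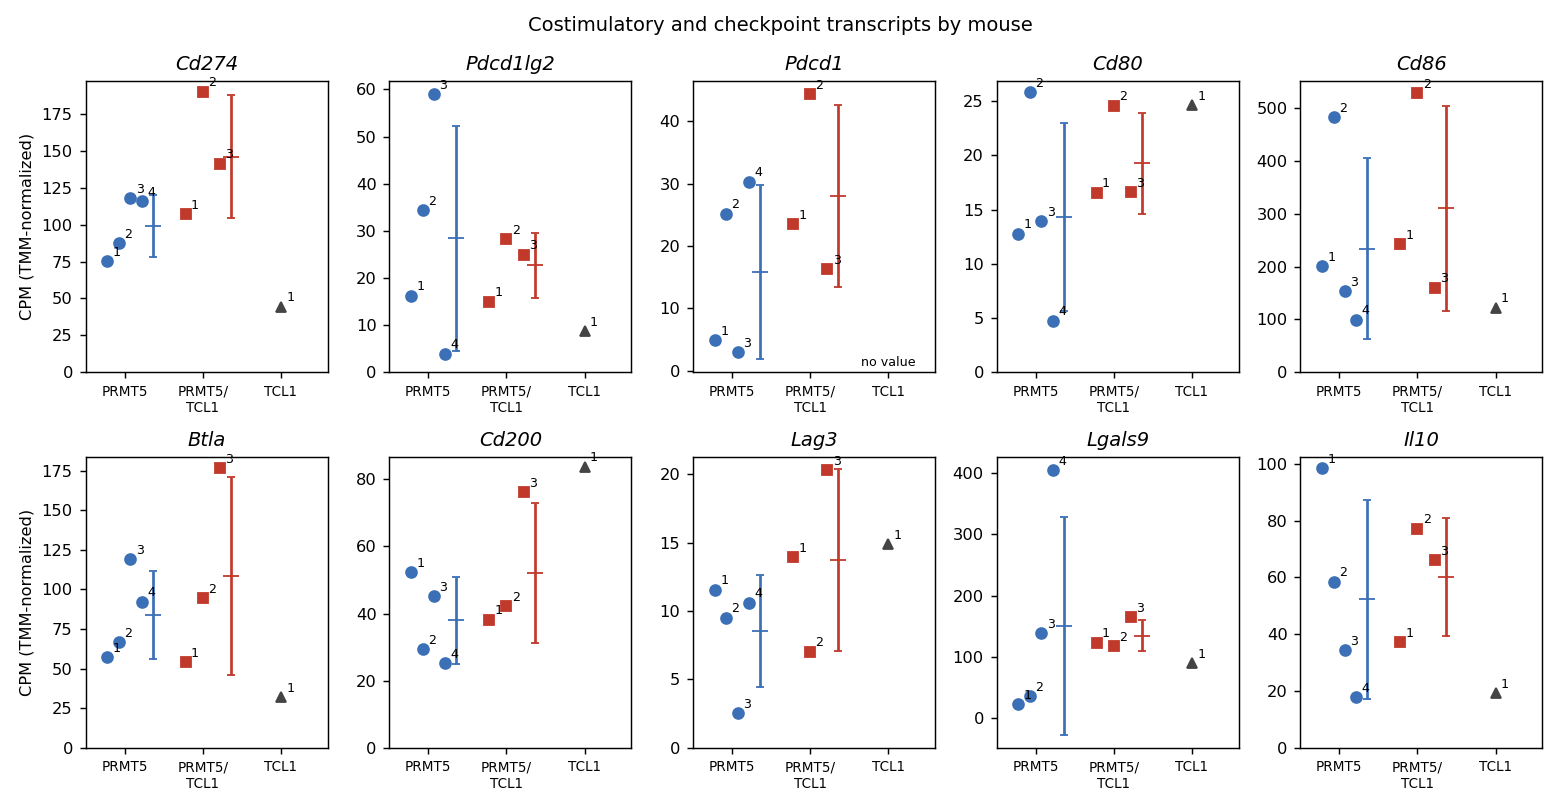
TMM-normalized CPM (linear axes) of the 10 members in each mouse, with circles for Eµ-PRMT5, squares for Eµ-PRMT5/TCL1 and a triangle for the Eµ-TCL1 mouse, each numbered by mouse; horizontal bars with whiskers give the mean and SD of the replicated groups. The Eµ-TCL1 mouse lies below all others for Cd274 (44.3 CPM) and Btla (31.9 CPM) and above all others for Cd200 (83.8 CPM), and it has no value for Pdcd1.

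To order the members against each other, CPM was divided by the exonic length of each gene in kb (GENCODE vM21, GRCm38). In the Eµ-PRMT5 mice, Lgals9 stood first with 70.5 ± 82.8 CPM per kb (SD, n = 4), followed by Cd86 with 63.9 ± 46.8, Il10 with 39.9 ± 26.7, Cd274 with 27.4 ± 5.89 and Btla with 24.7 ± 8.16 CPM per kb. The least abundant were Lag3 with 4.05 ± 1.95 and Cd80 with 3.86 ± 2.35 CPM per kb. In the Eµ-PRMT5/TCL1 mice, Cd86 stood first with 84.7 ± 52.9 CPM per kb (SD, n = 3), then Lgals9 with 63.1 ± 12.1, then Il10 with 45.9 ± 15.8, and Lag3 and Cd80 again last with 6.52 ± 3.15 and 5.20 ± 1.25 CPM per kb. In both groups Il10, Cd274 and Btla held neighbouring places below these 2. No pair of neighbours in either order had separate ranges over the mice. Within mice, Btla was above Pdcd1lg2 in 4 of 4 Eµ-PRMT5 mice. Btla was above Cd200, and Pdcd1lg2 above Lag3, in 3 of 3 Eµ-PRMT5/TCL1 mice. Every other pair of neighbours changed order between mice of a group. In the Eµ-TCL1 mouse Lgals9 and Cd86 came first, at 42.1 and 33.3 CPM per kb, and Cd200 came next, at 25.2 CPM per kb, while it was seventh and sixth in the other groups.

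**Figure D2:**
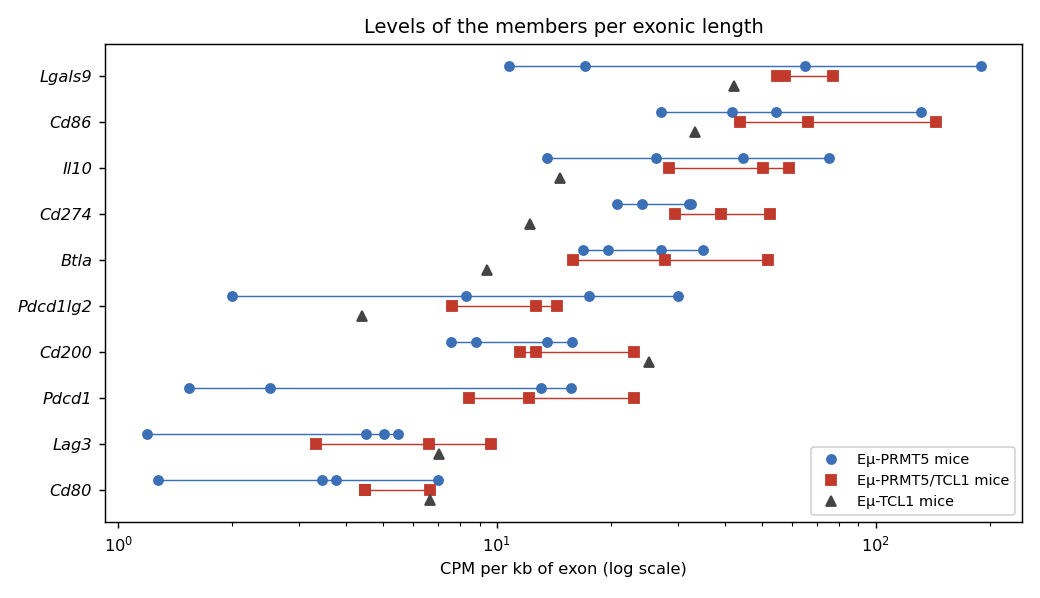
CPM per kb of exon (log axis) of each member, ordered by the mean of the Eµ-PRMT5 mice; each point is a mouse and lines join the lowest and highest mouse of a genotype. Ranges of neighbouring genes overlap, from Cd80 (mean 3.86) at the bottom to Lgals9 (mean 70.5) at the top in the Eµ-PRMT5 mice.

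Cd274 encodes PD-L1, the main ligand of PD-1. It lies on chromosome 19 of GRCm38 from 29367455 to 29388095 on the plus strand, and an exon of the opposite-strand gene AC119228.1 overlaps it, whose reads cannot be told apart if strand was not used in counting. The 250 bases upstream of its start in RefSeq (GRCm38.p6) are shown because Cd274, Btla and Cd200 are the members for which the Eµ-TCL1 mouse lay outside the range of all 7 others. Capitals mark the match to a motif bound by interferon regulatory factors, AANNGAAA on either strand, found once at 175 bases before the start (chr19:29367188-29367437, plus strand).
Cd274: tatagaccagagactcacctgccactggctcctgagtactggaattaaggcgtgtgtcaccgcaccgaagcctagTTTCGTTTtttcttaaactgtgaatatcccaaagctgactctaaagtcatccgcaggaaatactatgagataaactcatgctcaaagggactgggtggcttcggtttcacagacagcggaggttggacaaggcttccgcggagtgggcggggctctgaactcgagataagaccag
Of all 32851 RefSeq promoter windows of this length, 21.3% hold this motif.

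Cd274 was measured at 75.1, 87.4, 118 and 116 CPM in Eµ-PRMT5 mice 1 to 4, at 107, 190 and 141 CPM in Eµ-PRMT5/TCL1 mice 1 to 3, and at 44.3 CPM in the Eµ-TCL1 mouse. The means were 99.2 ± 21.3 CPM (SD, n = 4) and 146 ± 41.8 CPM (SD, n = 3). The double transgenic mice were on the high side, but mouse 1 of them overlapped the Eµ-PRMT5 mice. The log2 fold change was 0.56 (95% interval -0.16 to 1.28, unadjusted p = 0.116, adjusted p = 1.00 by edgeR). Without Eµ-PRMT5/TCL1 mouse 1, the ranges of the 2 genotypes no longer overlapped for Cd274, as for 6.76% of all tested genes. Among the Eµ-PRMT5 mice Cd274 was the steadiest member, with an SD of 0.32 on the log2(CPM + 1) scale against a median of 0.61 over all tested genes, and 12.8% of genes varied less. Eµ-PRMT5/TCL1 mouse 1, which had the highest monocyte marker sum, had the lowest Cd274 of its genotype. Eµ-PRMT5 mouse 4, with the highest monocyte marker sum of its genotype (3349 CPM), had a Cd274 close to the highest of its genotype. The part of other cells in the level of Cd274 was not tested.

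Pdcd1lg2, the gene of PD-L2, lies 22.8 kb downstream of Cd274 on the same strand (chromosome 19, 29410919 to 29471161). PD-L2 is the second ligand of PD-1 and also binds RGMB. Its values were 16.2, 34.4, 59.0 and 3.92 CPM in the Eµ-PRMT5 mice, at 14.9, 28.2 and 24.9 CPM in the Eµ-PRMT5/TCL1 mice and at 8.65 CPM in the Eµ-TCL1 mouse. Despite their closeness on the chromosome the 2 ligands did not keep a fixed ratio, since Cd274 was 2.00 times the Pdcd1lg2 value in Eµ-PRMT5 mouse 3 and 29.6 times that value in mouse 4. Across the Eµ-PRMT5 mice Pdcd1lg2 spanned 15.1-fold, and 97.3% of tested genes varied less. In the Eµ-PRMT5/TCL1 mice it spanned 1.89-fold and lay inside the range of the Eµ-PRMT5 mice, with a log2 fold change of -0.32 (95% interval -1.82 to 1.18).

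Pdcd1 encodes PD-1, an inhibitory receptor best known on activated T cells and also present on B cells (chromosome 1, 94038305 to 94052553, minus strand). It was measured at 4.87, 25.2, 2.96 and 30.3 CPM across the Eµ-PRMT5 mice and at 23.4, 44.3 and 16.3 CPM in the Eµ-PRMT5/TCL1 mice. The Eµ-PRMT5 mice fell into a low and a high pair, and the Eµ-PRMT5/TCL1 mice overlapped the high pair. In a fit of these 7 mice alone the log2 fold change was 0.82 (95% interval -0.75 to 2.39, unadjusted p = 0.276, adjusted p = 1.00 from edgeR). The matrix gives NA for the Eµ-TCL1 mouse, and since the meaning of NA is not given in the sources used here, no level or fold was taken for it.

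The mouse with the lowest Pdcd1, Eµ-PRMT5 mouse 3, had the highest Cd3d (44.7 CPM, against 13.2 CPM or less elsewhere) and Cd8b1 (125 CPM, against 12.5 CPM or less elsewhere). Of 9 T cell markers, 6 had a value in every library, and their summed level was 435 to 1037 CPM in the Eµ-PRMT5 mice, at 710 to 1239 CPM in the Eµ-PRMT5/TCL1 mice and at 456 CPM in the Eµ-TCL1 mouse. Other T cell markers were highest elsewhere. Cd3g was highest in Eµ-PRMT5 mouse 4 (95.1 CPM), and Lck (667 CPM), Cd2 (524 CPM) and the sum were highest in Eµ-PRMT5/TCL1 mouse 2, the mouse with the highest Pdcd1. None of the 6 was at 0. Most of that sum was Lck and Cd2, which some B cells also express.

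Of the B7 pair, Cd86 was more abundant than Cd80 in every mouse, also per kb of exon. Cd86, the ligand present on B cells early after activation, was measured at 200, 483, 153 and 99.0 CPM in the Eµ-PRMT5 mice, at 242, 528 and 160 CPM in the Eµ-PRMT5/TCL1 mice and at 122 CPM in the Eµ-TCL1 mouse (chromosome 16, 36603869 to 36666081, minus strand). Cd80, which appears later in activation, had 12.8, 25.8, 13.9 and 4.73 CPM in the Eµ-PRMT5 mice, at 16.6, 24.6 and 16.6 CPM in the Eµ-PRMT5/TCL1 mice and at 24.6 CPM in the Eµ-TCL1 mouse (chromosome 16, 38455561 to 38496335, plus strand). Mouse 2 of each replicated genotype was the highest for both genes, and Eµ-PRMT5 mouse 4, with the low B cell marker sum, was the lowest for both. Eµ-PRMT5/TCL1 mouse 3, with the highest B cell marker sum (8164 CPM), had the lowest Cd86 of its genotype. A link of these genes to B cell content was not tested. The CPM of Cd86 was between 9.64 and 21.5 times that of Cd80 in the 7 mice with Eµ-hPRMT5 and 4.96 times in the Eµ-TCL1 mouse. The log2 fold changes of Eµ-PRMT5/TCL1 against Eµ-PRMT5 mice were 0.41 for Cd86 (95% interval -0.79 to 1.60) and 0.43 for Cd80 (95% interval -0.75 to 1.61).

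Btla and Cd200 lie 124.5 kb apart on chromosome 16, on opposite strands. BTLA is an inhibitory receptor of B and T cells (45224315 to 45257670, plus strand), and CD200 is a surface ligand that restrains myeloid cells and is a diagnostic marker of CLL (45382135 to 45409053, minus strand). Upstream of Btla, capitals mark GAGGAAGT, a motif of the B cell and myeloid factor PU.1 that 2.44% of all promoter windows hold, found 18 bases before the RefSeq start (chr16:45224087-45224336, plus strand). Upstream of Cd200, capitals mark the interferon regulatory factor motif, 104 bases before the start (chr16:45409054-45409303, minus strand).
Btla: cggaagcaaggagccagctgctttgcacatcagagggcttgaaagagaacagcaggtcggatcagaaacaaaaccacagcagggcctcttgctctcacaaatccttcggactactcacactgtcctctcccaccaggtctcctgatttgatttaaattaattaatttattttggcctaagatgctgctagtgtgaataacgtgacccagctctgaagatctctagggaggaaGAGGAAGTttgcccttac
Cd200: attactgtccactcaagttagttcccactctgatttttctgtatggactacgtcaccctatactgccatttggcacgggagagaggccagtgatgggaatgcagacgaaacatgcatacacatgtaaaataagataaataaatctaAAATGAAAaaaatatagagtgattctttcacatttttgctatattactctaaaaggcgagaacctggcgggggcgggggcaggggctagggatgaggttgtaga
RefSeq promoters were matched for 7 of the 10 members, all except Cd86, Lag3 and Il10. The interferon regulatory factor motif was in 5 of the 7, those of Cd274, Pdcd1lg2, Pdcd1, Cd200 and Lgals9. An AP-1 motif, TGANTCA, was in the Cd80 window alone (6.75% of all windows). A STAT motif, TTCNNNGAA (7.02%), and an E box, CACGTG (6.02%), were in none. Both strands were searched and no match overlapped another motif. A match describes the letters and says nothing on whether a factor binds.

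Btla was measured at 57.2, 66.8, 119 and 92.2 CPM in the Eµ-PRMT5 mice, at 53.9, 94.5 and 177 CPM in the Eµ-PRMT5/TCL1 mice and at 31.9 CPM in the Eµ-TCL1 mouse. Its mean was 83.8 ± 27.7 CPM (SD, n = 4) and 108 ± 62.5 CPM (SD, n = 3) in the replicated groups. The higher mean of the double transgenic mice rested on mouse 3, which also had the highest B cell marker sum, 8164 CPM. Without that mouse the log2 fold change of 0.37 (95% interval -0.56 to 1.30) became -0.18. Eµ-PRMT5 mouse 4, with the lowest B cell marker sum (1737 CPM), had the second highest Btla of its genotype. The part of B cell content in the level of Btla was not tested.

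Cd200 was measured at 52.4, 29.3, 45.1 and 25.1 CPM in the Eµ-PRMT5 mice, at 38.2, 42.2 and 76.2 CPM in the Eµ-PRMT5/TCL1 mice and at 83.8 CPM in the Eµ-TCL1 mouse. The replicated groups overlapped, with means of 38.0 ± 12.9 CPM (SD, n = 4) and 52.2 ± 20.9 CPM (SD, n = 3) and a log2 fold change of 0.46 (95% interval -0.40 to 1.32). The CPM of Btla exceeded that of Cd200 in all 7 mice with Eµ-hPRMT5, by 1.09 to 3.67 times, and was 0.381 of it in the Eµ-TCL1 mouse.

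Lag3 encodes an inhibitory receptor of T, NK and some regulatory plasma cells (chromosome 6, 124904361 to 124911705, minus strand). It was low in every mouse, at 11.6, 9.50, 2.51 and 10.6 CPM in the Eµ-PRMT5 mice, at 13.9, 7.01 and 20.3 CPM in the Eµ-PRMT5/TCL1 mice and at 14.9 CPM in the Eµ-TCL1 mouse. The lowest was Eµ-PRMT5 mouse 3, the mouse with the highest NK cell marker sum (356 CPM over 3 of 7 markers, against 63.8 CPM or less elsewhere). Most of that sum was Nkg7, at 279 CPM. Of the NK cell markers outside the sum, Klrb1c and Eomes were also highest in this mouse. Gzma (23.1 CPM) and Klrd1 (8.93 CPM) were highest in Eµ-PRMT5 mouse 1. The log2 fold change of Lag3 in Eµ-PRMT5/TCL1 against Eµ-PRMT5 mice was 0.68 (95% interval -0.61 to 1.97). Without Eµ-PRMT5/TCL1 mouse 2 the ranges of Lag3 were apart, as for 5.99% of all tested genes.

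Lgals9, the gene of galectin-9, had the widest spread (chromosome 11, 78962974 to 78984946, minus strand). It was measured at 22.9, 36.6, 139 and 405 CPM in the Eµ-PRMT5 mice, at 123, 117 and 165 CPM in the Eµ-PRMT5/TCL1 mice and at 90.0 CPM in the Eµ-TCL1 mouse. In the Eµ-PRMT5 mice 98.9% of tested genes varied less, whereas in the Eµ-PRMT5/TCL1 mice the range was 1.41-fold and 35.1% varied less. Galectin-9 is also made by macrophages, and the highest value was in Eµ-PRMT5 mouse 4, whose 7 monocyte and macrophage markers summed to 3349 CPM against 1127 to 1219 CPM in the other Eµ-PRMT5 mice. In the Eµ-PRMT5/TCL1 mice the same sum ran from 997 to 7343 CPM, with Lgals9 highest where the sum was lowest. Most of the sum was Lyz2, at 2865 CPM in Eµ-PRMT5 mouse 4 and 6224 CPM in Eµ-PRMT5/TCL1 mouse 1. These 2 mice also had the highest neutrophil marker sums of their genotype, 5206 and 8790 CPM. Csf1r and Cd68 were also highest of their genotype in these 2 mice. Adgre1 was instead highest in Eµ-PRMT5 mouse 2 (72.7 CPM) and Eµ-PRMT5/TCL1 mouse 3 (70.2 CPM). The part of macrophages or neutrophils in the level of Lgals9 was not tested. The log2 fold change was -0.16 (95% interval -1.80 to 1.48) with all mice and 1.03 without Eµ-PRMT5 mouse 4.

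Il10 lies on chromosome 1 from 131019845 to 131024974 on the plus strand. It was measured at 98.4, 58.4, 34.4 and 17.8 CPM in the Eµ-PRMT5 mice, at 37.2, 77.2 and 66.1 CPM in the Eµ-PRMT5/TCL1 mice and at 19.2 CPM in the Eµ-TCL1 mouse. The replicated groups covered much the same range, with means of 52.3 ± 35.0 CPM (SD, n = 4) and 60.2 ± 20.6 CPM (SD, n = 3). The log2 fold change was 0.21 (95% interval -0.92 to 1.33). IL-10 is made by plasma cells as well as by B cells, and the mouse with the highest Il10, Eµ-PRMT5 mouse 1, had the highest sum of the 5 plasma cell markers, 5624 CPM. Most of that sum was Jchain (3057 CPM) and Xbp1 (2249 CPM), and Sdc1 was also highest in this mouse. Tnfrsf17 (63.0 CPM) and Prdm1 (210 CPM) were instead highest in the Eµ-TCL1 mouse, where Il10 was 19.2 CPM. The mouse with the second highest Il10, Eµ-PRMT5/TCL1 mouse 2, had the lowest plasma cell sum, 416 CPM, and the part of these cells in the level of Il10 was not tested.

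**Figure D3:**
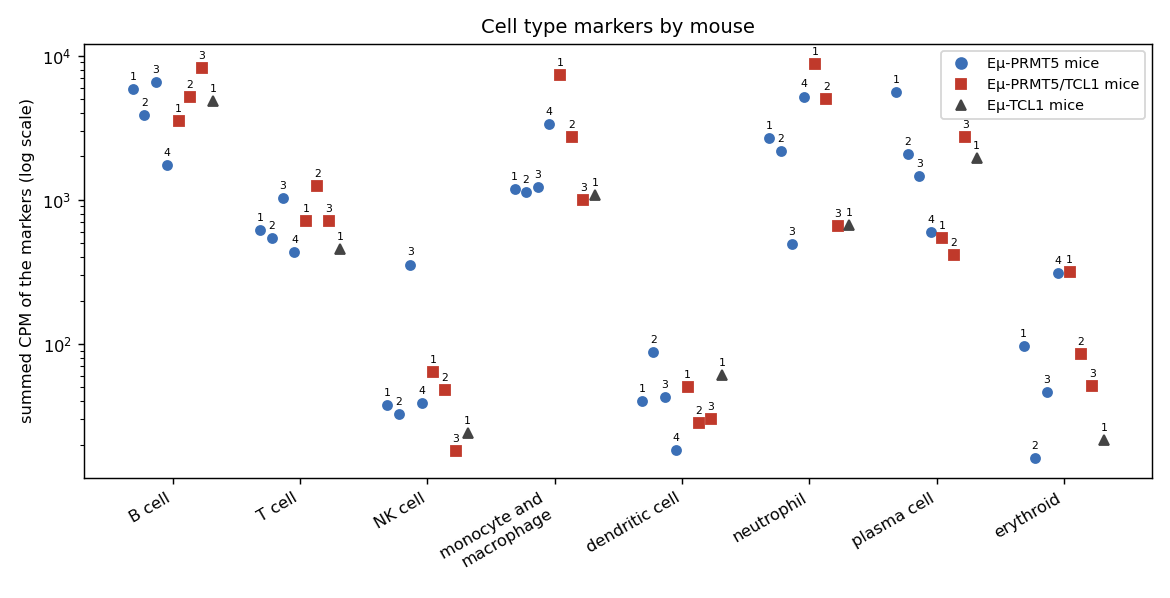
Summed CPM (log axis) of the markers of 8 cell types that have a value in every library, for each numbered mouse (circles Eµ-PRMT5, squares Eµ-PRMT5/TCL1, triangle Eµ-TCL1). Eµ-PRMT5 mouse 4 is lowest for B cell markers (1737 CPM), Eµ-PRMT5 mouse 3 is highest for NK cell markers (356 CPM), and Eµ-PRMT5/TCL1 mouse 1 is highest for neutrophil (8790 CPM) and monocyte (7343 CPM) markers.

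The remaining marker sums were as follows. Neutrophil markers (9 of 9) summed to 493 to 5206 CPM in the Eµ-PRMT5 mice, at 654 to 8790 CPM in the Eµ-PRMT5/TCL1 mice and at 665 CPM in the Eµ-TCL1 mouse. Dendritic cell markers (2 of 6 with a value in every library) did not exceed 88.3 CPM, and erythroid markers (5 of 7) did not exceed 314 CPM. The Eµ-TCL1 mouse had a B cell marker sum of 4865 CPM, inside the range of the other mice.

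The spread between mice was wider in the Eµ-PRMT5 group for most members, over 4 mice against 3. The fold range was larger over the 4 Eµ-PRMT5 mice than over the 3 Eµ-PRMT5/TCL1 mice for 8 of 10 members, the exceptions being Cd274 and Btla. The median SD over all tested genes also differed, 0.61 against 0.34 on the log2(CPM + 1) scale. The SD of 7 members lay above the first of these medians in the Eµ-PRMT5 mice, and the SD of 8 members above the second in the Eµ-PRMT5/TCL1 mice. No mouse was high throughout, although Eµ-PRMT5/TCL1 mouse 2 was the highest of its genotype for 6 of 10 members and mouse 1 the lowest for 6 of 10.

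The comparisons with the Eµ-TCL1 mouse set a single animal against the replicated groups and cannot speak for its genotype. The animal is assumed to vary like the others. Both comparisons use the same mouse and are not independent. Of 9 members with a value, Cd274 and Btla were below all 7 other mice (14.2% of all tested genes were) and Cd200 was above all 7 (21.3% of all tested genes were). Against the Eµ-PRMT5/TCL1 mice, 0 of 9 members passed an adjusted p of 0.05 (background 0.0%) and 2 had an unadjusted p under 0.05 (background 6.09%). Against the Eµ-PRMT5 mice, 0 passed the adjusted threshold (background 0.0%) and 0 the unadjusted (background 6.78%). These unadjusted counts moved when 1 mouse was left out. Against the Eµ-PRMT5 mice, 3 members (Cd274, Btla and Cd200) were under 0.05 without Eµ-PRMT5 mouse 1 (background then 8.17%), 2 (Pdcd1lg2 and Il10) without Eµ-PRMT5 mouse 4 (6.01%) and 1 (Btla) without Eµ-PRMT5/TCL1 mouse 3 (5.29%). Against the Eµ-PRMT5/TCL1 mice, Il10 joined Cd274 and Btla without Eµ-PRMT5 mouse 1 (background then 7.24%) or mouse 4 (9.05%), and Cd274 was the 1 member left without Eµ-PRMT5/TCL1 mouse 3 (4.14%).

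Cd274 was 1.69 to 4.29 times as high in the other mice as in the Eµ-TCL1 mouse. The log2 fold change was 1.72 in Eµ-PRMT5/TCL1 mice (95% interval 0.49 to 2.95, unadjusted p = 0.0100, adjusted p = 0.778) and 1.16 in Eµ-PRMT5 mice (95% interval -0.00037 to 2.32, unadjusted p = 0.0501, adjusted p = 0.709), by edgeR's quasi-likelihood test. For Btla the values were 1.76 (95% interval 0.18 to 3.35, unadjusted p = 0.0322, adjusted p = 0.778) and 1.39 (95% interval -0.13 to 2.91, unadjusted p = 0.0691, adjusted p = 0.709). Cd200 went the other way, with -0.68 (95% interval -1.94 to 0.57) and -1.14 (95% interval -2.32 to 0.03, unadjusted p = 0.0560, adjusted p = 0.709). Il10 had 1.65 (95% interval -0.27 to 3.56) and 1.44 (95% interval -0.41 to 3.30), and it was not below all others because Eµ-PRMT5 mouse 4 was lower. Without that mouse, Cd274, Pdcd1lg2, Cd86, Btla and Il10 were each at their lowest in the Eµ-TCL1 mouse, beside 15.4% of all tested genes. The median log2 fold change of the 9 members was 1.35 and 0.94, beside -0.07 and 0.04 over all tested genes. Between the replicated genotypes it was 0.41 beside -0.09.

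**Figure D4:**
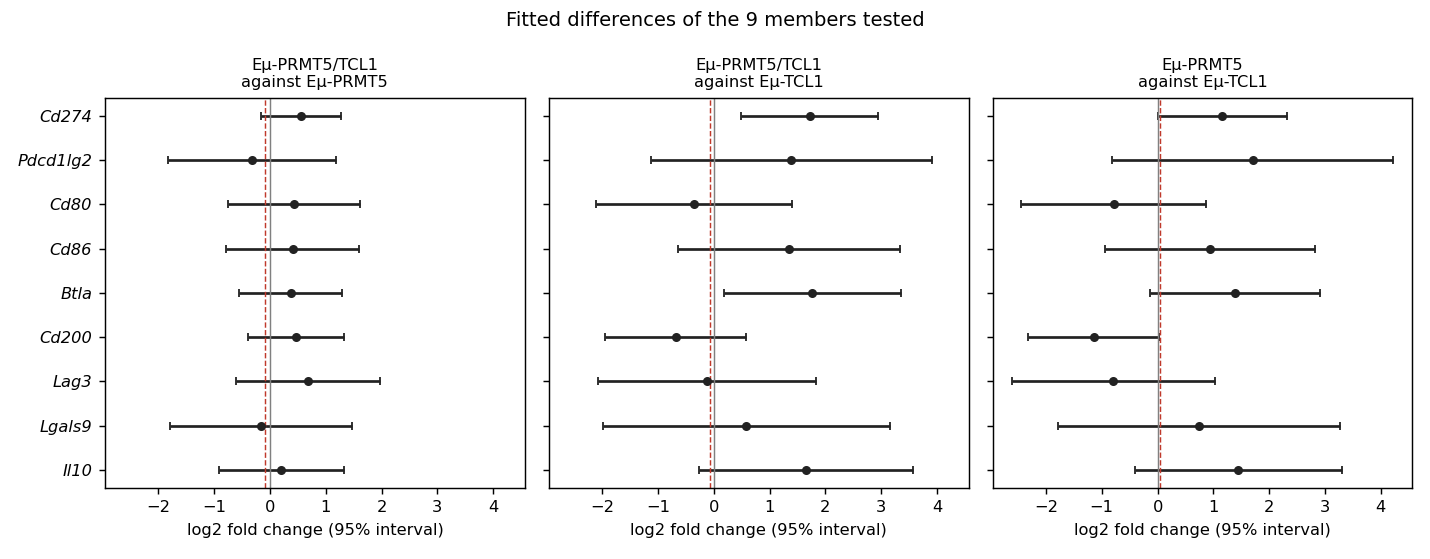
Log2 fold changes (points) with 95% intervals (bars) of the 9 members tested, in the 3 comparisons; the solid line is 0 and the dashed line is the median of all tested genes. Every interval spans 0 except those of Cd274 (0.49 to 2.95) and Btla (0.18 to 3.35) in Eµ-PRMT5/TCL1 mice against the Eµ-TCL1 mouse, and neither passed after adjustment over all genes.

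Around the members, 7 lists of pathway genes were examined, of which 62 of 76 genes were tested. None passed an adjusted p of 0.05 in any comparison, and 1, 6 and 5 had an unadjusted p under 0.05 in Eµ-PRMT5/TCL1 against Eµ-PRMT5 mice, in Eµ-PRMT5/TCL1 mice against the Eµ-TCL1 mouse and in Eµ-PRMT5 mice against it. These are 1.61%, 9.68% and 8.06% of the genes tested, beside the backgrounds of 2.17%, 6.09% and 6.78%.

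Among binding partners (6 of 8 tested), Il10ra, the ligand-binding chain of the IL-10 receptor, was the gene with an unadjusted p under 0.05 between the replicated genotypes. It was measured at 52.4, 69.7, 109 and 74.5 CPM in the Eµ-PRMT5 mice, at 130, 162 and 105 CPM in the Eµ-PRMT5/TCL1 mice and at 37.9 CPM in the Eµ-TCL1 mouse. Of the Eµ-PRMT5/TCL1 mice, 2 lay above all Eµ-PRMT5 mice and the other just below the highest of them. The log2 fold change was 0.79 (95% interval 0.05 to 1.53, unadjusted p = 0.0380, adjusted p = 1.00), and it was 1.81 against the Eµ-TCL1 mouse (unadjusted p = 0.00937, adjusted p = 0.778, edgeR). Its partner chain Il10rb had a log2 fold change of -0.71 between the replicated genotypes (95% interval -1.63 to 0.21), with 58.7 to 145 CPM in Eµ-PRMT5 and 41.5 to 94.3 CPM in Eµ-PRMT5/TCL1 mice. Tnfrsf14, the partner of BTLA, was between 1.42 and 10.2 CPM and Rgmb, the other partner of PD-L2, between 4.15 and 17.6 CPM over all mice. Cd200r1, the receptor of CD200, was between 9.13 and 16.4 CPM except in Eµ-PRMT5/TCL1 mouse 2 (23.2 CPM) and Eµ-PRMT5 mouse 4 (49.6 CPM). Havcr2, the partner of galectin-9, had no value (NA) in Eµ-PRMT5 mice 2 and 3 and was not tested, and its highest value was 28.9 CPM in Eµ-PRMT5/TCL1 mouse 1. Fgl1, a ligand of LAG3, was at 2.23 to 5.47 CPM across the Eµ-PRMT5 mice and at 11.9 CPM in the single Eµ-TCL1 mouse (log2 fold change -1.78, unadjusted p = 0.0370, adjusted p = 0.709, edgeR).

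Of the other B7 and CD28 family genes, 5 of 7 were tested. Ctla4, which takes CD80 and CD86 away from CD28, was measured at 58.4, 27.9, 15.7 and 32.1 CPM in the Eµ-PRMT5 mice, at 62.0, 12.9 and 87.3 CPM in the Eµ-PRMT5/TCL1 mice and at 114 CPM in the Eµ-TCL1 mouse. It was thus lower in each of the other 7 mice than in the Eµ-TCL1 mouse, with a log2 fold change of -1.77 in Eµ-PRMT5 mice (unadjusted p = 0.0402, adjusted p = 0.709, edgeR) and 0.69 between the replicated genotypes (95% interval -0.57 to 1.95). The Eµ-TCL1 mouse was above all 7 others for 21.3% of all tested genes. Cd28 ranged from 5.88 to 30.8 CPM and Icosl, the ligand of ICOS, from 15.3 to 71.4 CPM. Icos itself was at 3.28 to 4.72 CPM in the Eµ-PRMT5/TCL1 mice and at 11.6 CPM in the Eµ-TCL1 mouse (log2 fold change -1.61, unadjusted p = 0.0489, adjusted p = 0.778, edgeR).

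In the TNF family of costimulators, 6 of 10 genes were tested. Cd40, through which T cells activate B cells, was measured at 57.0 to 173 CPM in Eµ-PRMT5 mice, 73.0 to 139 CPM in Eµ-PRMT5/TCL1 mice and at 120 CPM in the Eµ-TCL1 mouse. Tnfrsf4, the gene of OX40, was at 6.23, 7.86 and 122 CPM in the Eµ-PRMT5/TCL1 mice and at 2.43 CPM in the Eµ-TCL1 mouse, so its log2 fold change of 4.21 (unadjusted p = 0.0396, adjusted p = 0.778, edgeR) came with a high value in mouse 3 alone. Among 14 other inhibitory receptors and ligands tested, 13 had a positive log2 fold change in each comparison with the Eµ-TCL1 mouse, with medians of 0.82 and 0.73, and 0 had an unadjusted p under 0.05. Of all tested genes, 46.6% and 51.9% were positive in these comparisons, which share the 1 mouse. Cd5, an inhibitor of antigen receptor signals that CLL cells carry, was at 28.1 to 56.3 CPM in the Eµ-PRMT5 mice, at 23.3 to 57.6 CPM in the Eµ-PRMT5/TCL1 mice and at 16.2 CPM in the Eµ-TCL1 mouse.

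Of the 9 intracellular effectors, all tested, Ptpn6 was the gene with an unadjusted p under 0.05. It encodes SHP-1, the phosphatase that several of these receptors recruit, and was measured at 485, 490, 1074 and 891 CPM in the Eµ-PRMT5 mice, at 886, 1137 and 1784 CPM in the Eµ-PRMT5/TCL1 mice and at 267 CPM in the Eµ-TCL1 mouse. The log2 fold change of Eµ-PRMT5/TCL1 mice against that mouse was 2.25 (unadjusted p = 0.0113, adjusted p = 0.778, edgeR).

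Of 14 regulators tested, Irf1 and Prdm1 had an unadjusted p under 0.05 in both comparisons with the Eµ-TCL1 mouse, in opposite directions. Irf1, an interferon-induced activator of Cd274, was measured at 155, 176, 121 and 248 CPM in the Eµ-PRMT5 mice, at 211, 176 and 210 CPM in the Eµ-PRMT5/TCL1 mice and at 54.3 CPM in the Eµ-TCL1 mouse. All 7 mice with Eµ-hPRMT5 were above the Eµ-TCL1 mouse, with log2 fold changes of 1.69 in Eµ-PRMT5 mice (unadjusted p = 0.0101, adjusted p = 0.709) and 1.87 in Eµ-PRMT5/TCL1 mice (unadjusted p = 0.00652, adjusted p = 0.778), by edgeR. Prdm1, the driver of plasma cell differentiation, was at 38.9 to 95.2 CPM in the Eµ-PRMT5 mice, at 29.5 to 49.5 CPM in the Eµ-PRMT5/TCL1 mice and at 210 CPM in the Eµ-TCL1 mouse. The log2 fold changes were -1.82 (unadjusted p = 0.00424, adjusted p = 0.709) and -2.32 (unadjusted p = 0.00109, adjusted p = 0.739), by edgeR. Of 8 regulatory B cell genes tested, Il12a, a subunit of IL-12 and IL-35, was at 3.04 to 27.1 CPM across the Eµ-PRMT5 mice and at 72.2 CPM in the single Eµ-TCL1 mouse (log2 fold change -2.45, unadjusted p = 0.0107, adjusted p = 0.709, edgeR).

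Whether levels of members went together across mice was examined for 6 pairs on the log2(CPM + 1) scale, with two-sided exact permutation tests adjusted over the 6. None passed. Cd80 and Cd86 had a Pearson r of 0.65 (exact permutation p = 0.0809, adjusted p = 0.162) and a Spearman rho of 0.48 (exact permutation p = 0.243, adjusted p = 0.486) over 8 mice, and r was 0.31 after the 2 mice with the most extreme Cd80 were left out. Cd274 and Pdcd1lg2 had an r of 0.35 (exact permutation p = 0.392, adjusted p = 0.471) and a rho of 0.40 (exact permutation p = 0.327, adjusted p = 0.490), and r was 0.01 without the 2 farthest mice. Btla and Cd200 had an r of -0.10 (exact permutation p = 0.817, adjusted p = 0.817) and a rho of -0.05 (exact permutation p = 0.935, adjusted p = 0.935), with an r of -0.09 without 2 mice. For the neighbouring genes on chromosomes 19 and 16, a relation was not detectable at this number of mice.

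Pdcd1 and Lag3 had an r of 0.43 over the 7 mice with a value (exact permutation p = 0.338, adjusted p = 0.471) and a rho of -0.11 (exact permutation p = 0.840, adjusted p = 0.935), and r turned to -0.94 in the 5 mice left without Eµ-PRMT5 mice 1 and 3. The mean of 6 T cell markers was related negatively to Pdcd1, with an r of -0.72 (exact permutation p = 0.0480, adjusted p = 0.144) and a rho of -0.54 (exact permutation p = 0.236, adjusted p = 0.486). It was related negatively to Lag3 as well, with an r of -0.84 (exact permutation p = 0.0382, adjusted p = 0.144) and a rho of -0.57 (exact permutation p = 0.151, adjusted p = 0.486). For Pdcd1, r was 0.15 in the 5 mice left without Eµ-PRMT5 mice 1 and 3. For Lag3, r was -0.08 in the 6 mice left without mouse 3 of both replicated genotypes, so each relation rested on the pair left out. Within a genotype there were too few mice for any of these relations.

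**Figure D5:**
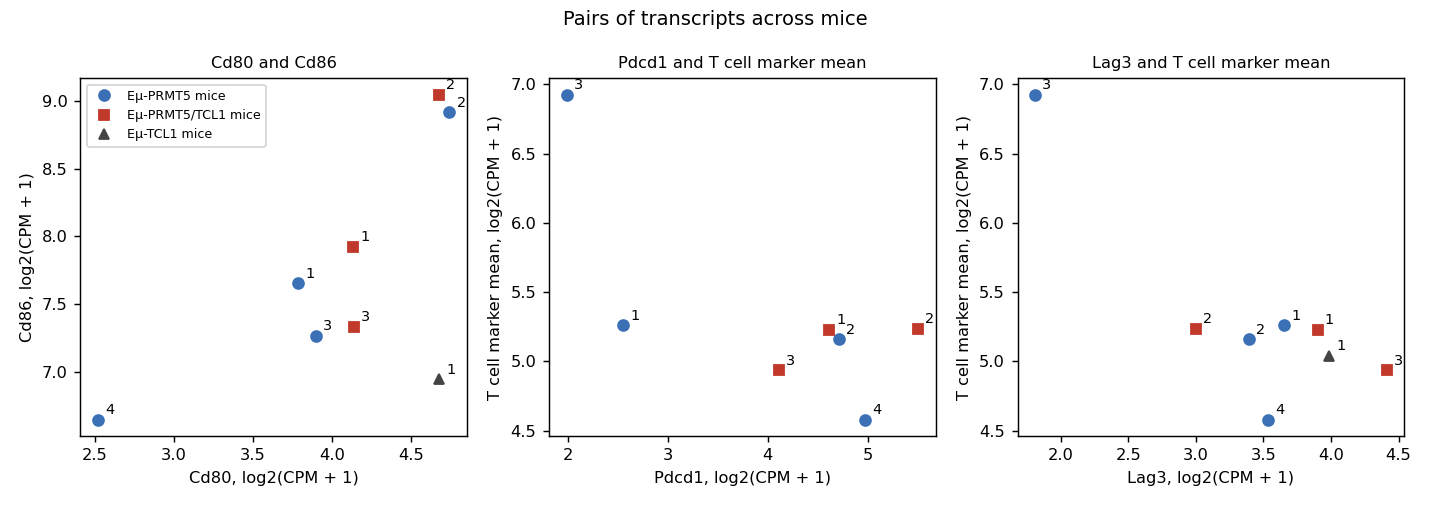
Pairs of values on the log2(CPM + 1) scale in each numbered mouse, for Cd80 and Cd86 (r = 0.65), Pdcd1 and the T cell marker mean (r = -0.72), and Lag3 and the T cell marker mean (r = -0.84); circles are Eµ-PRMT5, squares Eµ-PRMT5/TCL1 and the triangle the Eµ-TCL1 mouse. In the second and the third panel Eµ-PRMT5 mouse 3 lies alone at the upper left.

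The 3 tested genes whose pattern over the 8 mice was most like that of Cd274 were Tarbp2, Napsa and Myo1g, with a Pearson r of 0.98, 0.98 and 0.97. Each had its lowest value in the Eµ-TCL1 mouse, 25.7, 248 and 143 CPM. The genes most like Il10 were Gpcpd1 (r = 0.98), Mir1198 (r = 0.95) and Znrf2 (r = 0.94). Gpcpd1 ran from 164 CPM in the Eµ-TCL1 mouse to 366 CPM in Eµ-PRMT5/TCL1 mouse 2, while Mir1198 did not exceed 2.44 CPM and was listed at 0 in the Eµ-TCL1 mouse. These are the highest of the correlations with all other tested genes over 8 points and are given as a description, without a test.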

How the data were processed

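Splenic B cell RNA from 8 mice was sequenced in bulk. The file the authors deposited holds unnormalized counts for each gene symbol in 1 column per mouse, not pooled. By the study's methods for low-input samples, cDNA was preamplified, sequenced in paired ends and passed through the CLEAR workflow, whereas the labels describe a stranded mRNA kit. The submitters' processing notes name Subread, featureCounts, DESeq2 1.20.0 and GRCm38. The study's methods name the STAR aligner and an Ensembl annotation for its RNA-seq with the stranded kit. For low-input samples the aligner, the annotation, the use of strand in counting and the meaning of NA are not given in the sources used here.

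NA was not read as 0, and 26 rows with a date in place of a symbol were kept. The 14072 symbols that every library gave a value were filtered by group with edgeR 4.0.16 (R 4.3.3), leaving 13173 genes, and 1 model over 3 groups was fitted with TMM factors and no replicate block. Differences were tested with the two-sided quasi-likelihood test and Benjamini-Hochberg adjustment over all genes, with a threshold of 0.05. Standard errors and 95% intervals follow from the test. CPM used the same factors for every symbol. The pseudocount of log2 values was 1 CPM. Gene lengths are merged exons of GENCODE vM21, and promoters are from RefSeq (GRCm38.p6). Correlations used Python 3.11.15.

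Groups follow the labelled genotype. Named genes were the 10 members, 11 partners and related genes, pathway genes with an unadjusted p under 0.05, and the 3 genes most like Cd274 and Il10. The members and lists were chosen with earlier results of these data known. Nothing in the labels says that mice shared a litter or a batch, so p-values cover the spread between these mice. The code was tested on simulated data. Alternatives were DESeq2 1.42.0, other scalings, filters and pseudocounts, NA as 0, the 2 groups compared alone, the block and each mouse left out.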

Additional observations from a re-analysis of the deposited data

How the results depend on the processing

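No member passed an adjusted p of 0.05 under any alternative, and 390 of 405 alternative log2 fold changes kept their direction. Over all genes, edgeR called 0 in each comparison under every alternative, with 286, 802 and 893 genes at an unadjusted p under 0.05 in Eµ-PRMT5/TCL1 against Eµ-PRMT5 mice and in Eµ-PRMT5/TCL1 and Eµ-PRMT5 mice against the Eµ-TCL1 mouse. DESeq2 called 4, 16 and 18 genes, none of them a member; the cause was not tested. With only the 2 groups compared, 5 members (Cd274, Pdcd1lg2, Cd86, Btla and Il10) had an unadjusted p under 0.05 in Eµ-PRMT5/TCL1 mice against the Eµ-TCL1 mouse, beside 18.9% of all genes. With DESeq2, 3 did so there (Cd274, Btla and Il10, beside 7.06% of all genes) and 2 in Eµ-PRMT5 mice (Cd274 and Btla, beside 8.55%). NA counted as 0 gave Cd274, Btla and Pdcd1 in both comparisons, and the other scalings and filters gave between 0 and 2 members. The unadjusted counts of all genes ran from 149 to 826, from 404 to 3001 and from 412 to 2119 over the alternatives.

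By the labels the same-numbered mice have a number in common, and whether they share anything else is not given. The correlations of their deviations from the group means were 0.02, 0.11 and 0.16, and 5 of 6 mice correlated best with their own number. With the replicate block, 0 genes were called, and 495 and 331 had an unadjusted p under 0.05 in the higher and lower direction, 6.58% of the genes tested. Lgals9 had a log2 fold change of 1.44 (adjusted p = 0.361, edgeR) and was the 1 member at an unadjusted p under 0.05. Without the block 0 members were, beside 5.91% of all genes. Il10 had a log2 fold change of -0.0052 with the block. Without the block the same 6 mice gave 374 and 368 genes, 1.02 for Lgals9 and -0.085 for Il10. These fits leave out Eµ-PRMT5 mouse 4.

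When each mouse was left out, log2 fold changes of Eµ-PRMT5/TCL1 against Eµ-PRMT5 mice ran from -0.69 to 0.32 for Pdcd1lg2 (turned without Eµ-PRMT5 mouse 3), from -0.22 to 1.04 for Cd86 (Eµ-PRMT5/TCL1 mouse 2), from -0.18 to 0.69 for Btla (Eµ-PRMT5/TCL1 mouse 3), from -0.52 to 1.03 for Lgals9 (Eµ-PRMT5 mouse 4) and from -0.084 to 0.73 for Il10 (Eµ-PRMT5/TCL1 mouse 2 or Eµ-PRMT5 mouse 4). Against the Eµ-TCL1 mouse, Lag3 in Eµ-PRMT5/TCL1 mice ran from -0.51 to 0.20 and Lgals9 in Eµ-PRMT5 mice from -0.45 to 1.23. Lag3 was also 0.18 with NA counted as 0 and 0.13 with only the 2 groups compared. For Cd274 and Btla in Eµ-PRMT5/TCL1 mice, adjusted p ran from 0.160 to 0.976 and from 0.207 to 0.976 over 14 alternatives.

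Scaling by library size alone moved the median of all genes by -0.23 and -0.25 in the comparisons with the Eµ-TCL1 mouse, and upper-quartile factors by -0.09 and -0.16. Of genes at an unadjusted p under 0.05, library size alone put 14.9% and 13.9% higher in these comparisons, where 28.8% and 28.9% were higher with TMM and 51.2% and 57.4% with DESeq2, and upper-quartile factors put 57.4% in place of 44.1% higher between the replicated genotypes. Relative to the median, 0 of 27 member differences changed sign. Under both of these scalings Cd80 was also above all 7 others in the Eµ-TCL1 mouse. With library size alone the r of Btla with Cd200 was 0.0081. The other relations kept their direction and none passed.

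By alternatives chosen after seeing the data, between 0 and 1 members had ranges apart when 1 mouse was left out. These were Cd80, Cd274 or Lag3, without Eµ-PRMT5 mouse 2 and Eµ-PRMT5/TCL1 mice 1 and 2, beside 4.91%, 6.76% and 5.99% of tested genes. Between 3 and 6 members lay outside the range of the others in the Eµ-TCL1 mouse. The 6 came with Eµ-PRMT5 mouse 4 left out, where 15.4% of tested genes were below all others in the Eµ-TCL1 mouse and 22.6% above. With Eµ-PRMT5/TCL1 mouse 1 left out as well these counts were 1 (Cd274, beside 17.1% of tested genes) and 6. Pdcd1 had 24 and 13 reads in Eµ-PRMT5 mice 1 and 3 and 106 to 310 in the other 5 with a value, and Lag3 had 11 to 132 reads in all 8 mice, which limits the precision of the lowest values.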
